A study of Mus musculus with 12 samples.

Results

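The expression of 10 genes of regulatory T cells and T cell costimulation (Foxp3, Ikzf2, Il2ra, Ccr8, Cd28, Icos, Cd27, Tnfrsf4, Tnfrsf18 and Tnfrsf9) was examined in 12 subcutaneous TRAMP-C2 tumors. They were chosen by name, as the rows of the count files whose Ensembl identifier maps to these symbols, and all 10 were found among the 49315 genes counted. TRAMP-C2 cells derive from a mouse prostate tumor. ADU-S100 activates STING, the sensor pathway for cytosolic DNA, and cyto-IL-15 is interleukin-15 made to attach to cell membranes. Male C57BL/6J mice aged 6 to 8 weeks carried the cells under the skin of the right flank, and the injections went into tumors that had grown to about 200 mm3. The combination group (tumors 20L, 22 and 28LL) received 3 doses of 50 µg ADU-S100 with 2 doses of 10 µg cyto-IL-15. The same doses of 1 agent alone were given to tumors 17LL, 18R and 22LR (ADU-S100) and to tumors 9R, 13 and 20LL (cyto-IL-15). The control group (19, 22R and 22LL) received HBSS, the buffered salt solution used as vehicle. All tumors were removed on day 6. The labels give 1 tumor per library and do not say what the numbers and letters of the tumor names stand for. Some names share a leading number across groups (22, 22R, 22LL and 22LR, or 20L and 20LL). The p-values below judge differences against the spread between tumors and treat the 12 tumors as independent.

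Regulatory T cells restrain other T cells, and in mice their identity depends on the transcription factor Foxp3. They carry a high level of the interleukin-2 receptor α chain and compete through it for interleukin-2. T cells that recognize antigen need a further signal from costimulatory receptors, of which Cd28 and Icos belong to the immunoglobulin superfamily and Cd27, Tnfrsf4, Tnfrsf18 and Tnfrsf9 to the tumor necrosis factor receptor superfamily. Most of these receptors appear on effector T cells once activated and are also abundant on regulatory T cells in tumors, so that none of them alone marks either kind of cell. In RNA from whole tumors, fewer cells of a type and less RNA per cell cannot be told apart.

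Of the 10 genes, 3 lie on mouse chromosome 4 and 3 on chromosome 1. In the coordinates of the count files (build GRCm38), Tnfrsf4 (chromosome 4, 156013843 to 156016612) and Tnfrsf18 (156026164 to 156028895) lie 9.6 kb apart with 2 short gene models between them, and Tnfrsf9 (150914562 to 150946102) lies on the same chromosome. Cd28 (chromosome 1, 60716800 to 60773359) and Icos (60977927 to 61000320) are 204.6 kb apart, and Ikzf2 occupies 69531214 to 69687245 on the minus strand of the same chromosome. Foxp3 spans 7579676 to 7595243 on chromosome X, Il2ra 11642807 to 11693193 on chromosome 2, Cd27 125232622 to 125237010 on chromosome 6 and Ccr8 120092114 to 120094906 on chromosome 9. The strand setting of the counting is not given in the sources used here. Exons of Foxp3 overlap those of Ccdc22 and Gm36995 on the opposite strand and of Flicr on the same strand, exons of Ikzf2 overlap those of Gm29114, exons of Tnfrsf18 those of Gm16008 and exons of Cd27 those of Mir8113 on the same strand, so reads in the shared bases cannot be assigned with certainty.

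RefSeq start sites (build GRCm38.p6) were available for 7 of the 10 genes, with 9 starts in all. The 250 bases before the start are shown for Il2ra and for the 2 starts of Tnfrsf9, which had the smallest p-values of the 10 genes when tumors with and without ADU-S100 were compared. Capitals mark matches, on either strand, to 4 motifs: GGG, any 5 bases and CC (the κB sites of NF-κB), TGANTCA (AP-1), TTCNNNGAA (the GAS element of STAT factors) and GAAA, any 2 bases and GAAA (the interferon-stimulated response element).
Il2ra, chr2:11642542-11642791, plus strand: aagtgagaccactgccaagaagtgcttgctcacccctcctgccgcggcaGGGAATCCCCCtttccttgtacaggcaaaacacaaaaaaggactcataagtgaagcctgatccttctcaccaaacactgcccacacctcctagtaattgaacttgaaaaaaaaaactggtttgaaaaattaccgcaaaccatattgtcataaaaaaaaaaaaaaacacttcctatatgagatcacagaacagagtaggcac
Tnfrsf9 upstream start, chr4:150919905-150920154, plus strand: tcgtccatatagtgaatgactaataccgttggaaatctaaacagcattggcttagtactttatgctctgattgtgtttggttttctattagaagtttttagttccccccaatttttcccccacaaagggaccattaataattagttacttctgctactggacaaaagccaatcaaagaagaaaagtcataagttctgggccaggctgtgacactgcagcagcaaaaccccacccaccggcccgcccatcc
Tnfrsf9 downstream start, chr4:150927749-150927998, plus strand: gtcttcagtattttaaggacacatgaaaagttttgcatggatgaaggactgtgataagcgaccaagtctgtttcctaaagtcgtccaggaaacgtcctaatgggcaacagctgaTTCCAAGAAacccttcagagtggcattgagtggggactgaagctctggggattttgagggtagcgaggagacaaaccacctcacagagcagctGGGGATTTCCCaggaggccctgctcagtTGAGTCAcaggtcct

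In these windows Il2ra held 2 overlapping κB matches, the downstream start of Tnfrsf9 held 2 overlapping κB matches, 1 AP-1 and 1 GAS match, and the upstream start of Tnfrsf9 held none of the 4 motifs. Among the other starts, Cd27 and Ccr8 held 2 overlapping κB matches each, Tnfrsf18 and the downstream start of Foxp3 held 1 GAS match each, and Tnfrsf4 and the upstream start of Foxp3 held none. Over all 32851 windows of the same length, 45.8% held a κB match, 6.75% an AP-1 match, 7.02% a GAS match and 2.98% an interferon-stimulated response element. These matches describe letters and were not tested as binding sites.

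Total counts ranged from 48772204 to 103700199 per tumor. Levels are given as CPM (reads of a gene scaled to the same library total, after TMM scaling over the 12 libraries) or, per kilobase of exon, as RPKM, and differences as log2 fold changes with their standard error (SE) from edgeR's quasi-likelihood test. A gene was called at a Benjamini-Hochberg adjusted p under 0.05 over all genes tested and an absolute log2 fold change above 1. Tumors 13 and 28LL stood apart from the rest, with correlations of 0.83 to 0.93 with the others, against 0.95 to 0.99 among the other 10. Yap1, a transcriptional coactivator, stood at 36330 CPM in tumor 13, 5079 in 22LL and 1144 in 28LL, against 97.6 to 145 CPM in the other tumors. The epithelial list of Krt8, Krt18, Epcam and Cdh1 summed to 12.2 to 42.9 CPM in the combination, 8.49 to 9.59 in ADU-S100, 13.0 to 95.7 in cyto-IL-15 and 10.2 to 149.7 CPM in HBSS tumors, with Epcam, which marks epithelium, at 0.161 to 1.02 CPM except for 11.9 CPM in 28LL. The T cell receptor subunit Cd3e was counted at 118 reads or more in every library.

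The levels of the 10 genes differed widely. Per kilobase of exon, Tnfrsf9 was the most abundant, with a mean of 28.0 RPKM over the 12 tumors (range 5.93 to 140.6), followed by Tnfrsf18 at 3.72, Tnfrsf4 at 2.03 and Cd27 at 1.99 RPKM. Icos averaged 1.42, Il2ra 1.41 and Cd28 0.984 RPKM, and the lowest were Foxp3 at 0.669, Ikzf2 at 0.543 and Ccr8 at 0.503 RPKM. The ranges over tumors of all neighbours in this order overlapped. The mean of Il2ra included 10.06 RPKM in 28LL, against 1.35 RPKM in the next tumor, 22. In the HBSS tumors alone Il2ra had the lowest mean of the 10 genes, 0.332 RPKM, followed by Ikzf2 at 0.413 RPKM. For comparison, Cd8a averaged 4.87, Cd3e 2.21 and Cd4 1.95 RPKM.

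**Figure D1:**
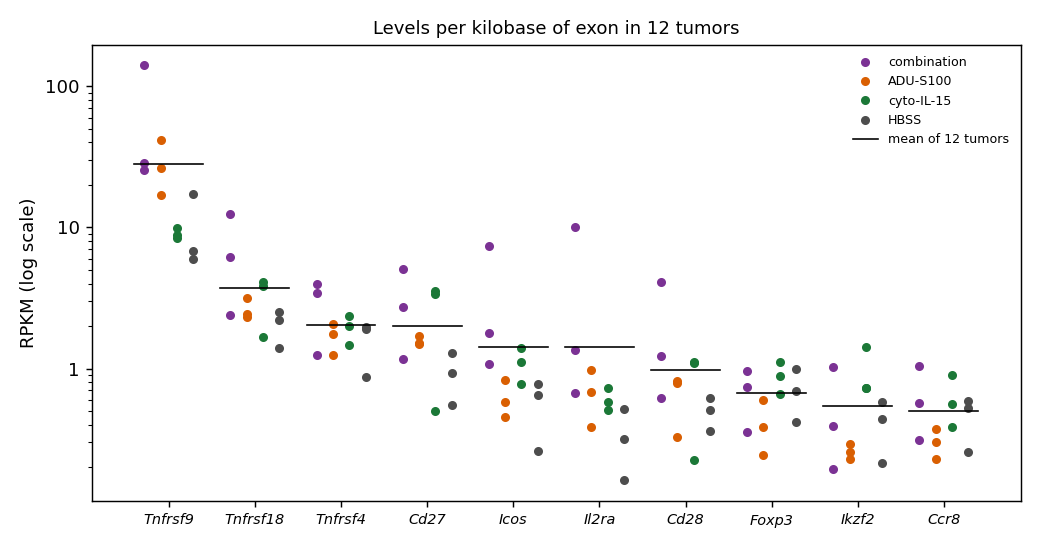
RPKM (log scale) of each gene in each of the 12 tumors, in order of the mean over the tumors (black line), with dots colored by group. The dots of Tnfrsf9, from 5.93 to 140.6 RPKM, lie mostly above those of the other genes, and Foxp3, Ikzf2 and Ccr8 have the lowest means. The lowest single dot is that of Il2ra in HBSS tumor 22R, at 0.162 RPKM.

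Among the genes of regulatory T cell identity, Foxp3 was measured at 1.41, 3.81 and 2.93 CPM in the combination tumors, 1.55, 2.39 and 0.974 in the ADU-S100 tumors, 4.46, 2.61 and 3.53 in the cyto-IL-15 tumors and 2.75, 1.67 and 3.93 CPM in the HBSS tumors. Its highest tumor was 9R and its lowest 22LR, and every treated group overlapped HBSS. The means were 3.53 ± 0.925 CPM in cyto-IL-15, 2.72 ± 1.21 in the combination, 1.64 ± 0.713 in ADU-S100 and 2.78 ± 1.13 CPM in HBSS tumors (SD, n = 3 each). The differences between neighbours in the order of these means were smaller than the larger of the neighbouring SDs. The log2 fold change over HBSS was -0.01 (SE 0.48, edgeR adjusted p = 0.99) for the combination, -0.75 (SE 0.41, adjusted p = 0.301) for ADU-S100 and 0.36 (SE 0.41, adjusted p = 0.901) for cyto-IL-15. The sign for the combination turned positive when tumor 20L or 22LL was left out of edgeR's fit. Between the single agents, all 3 ADU-S100 tumors lay below all 3 cyto-IL-15 tumors, with a log2 fold change of -1.14 (SE 0.43, edgeR adjusted p = 0.615, unadjusted p = 0.0341).

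Ikzf2 encodes Helios, a transcription factor that many regulatory T cells share with some natural killer and activated T cells. Its level was 2.24, 4.58 and 11.9 CPM in the combination, 2.67, 3.41 and 2.98 in ADU-S100, 8.42, 16.5 and 8.45 in cyto-IL-15 and 5.12, 2.5 and 6.76 CPM in HBSS tumors. The cyto-IL-15 tumors lay above every HBSS and every ADU-S100 tumor. Over HBSS the log2 fold change was 1.23 (SE 0.47, edgeR adjusted p = 0.898, unadjusted p = 0.0371) for cyto-IL-15 (0.83 without tumor 13), 0.41 (SE 0.67, adjusted p = 0.747) for the combination and -0.65 (SE 0.34, adjusted p = 0.282) for ADU-S100. The value for the combination was -0.48 without tumor 28LL. ADU-S100 over cyto-IL-15 gave -1.92 (SE 0.36, edgeR adjusted p = 0.263), and here DESeq2 called Ikzf2 lower, with an adjusted p of 0.000211. Leaving out tumor 13, the highest, edgeR also called it, at a log2 fold change of -1.47 (adjusted p = 0.0258), and over the 11 alternatives the adjusted p ran from 0.000211 to 0.911. Tumor 13, the highest for Ikzf2, had the lowest summed level of the 15 T cell genes described below (40.4 CPM) and the lowest Cd3e (1.90 CPM), although Cd4 was lower in 5 other tumors, and the part of cells other than T cells in this level was not tested.

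Il2ra encodes the interleukin-2 receptor α chain (CD25), carried by regulatory T cells and by activated T and natural killer cells. It stood at 3.84, 7.71 and 57.4 CPM in the combination, 2.22, 5.58 and 3.90 in ADU-S100, 3.29, 4.18 and 2.90 in cyto-IL-15 and 1.80, 0.924 and 2.96 CPM in HBSS tumors. The 3 combination tumors were all higher than the HBSS tumors, and 28LL was 7.45 times as high as the next tumor, 22. The log2 fold change over HBSS was 3.63 (SE 1.13, edgeR adjusted p = 0.213) for the combination, 1.04 (SE 0.46, adjusted p = 0.218) for ADU-S100 and 0.88 (SE 0.47, adjusted p = 0.898) for cyto-IL-15. Without 28LL the first value was 1.62.

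Ccr8, a chemokine receptor of tumor-resident regulatory T cells, had the fewest reads, 22 to 84 per tumor. The combination tumors had 0.368, 1.22 and 0.675 CPM, the ADU-S100 tumors 0.356, 0.437 and 0.269, the cyto-IL-15 tumors 1.06, 0.451 and 0.654 and the HBSS tumors 0.688, 0.299 and 0.616 CPM. No treated group was separate from HBSS, and the log2 fold changes over HBSS were 0.52, -0.57 and 0.45 for the combination, ADU-S100 and cyto-IL-15 (edgeR adjusted p = 0.612, 0.429 and 0.9).

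**Figure D2:**
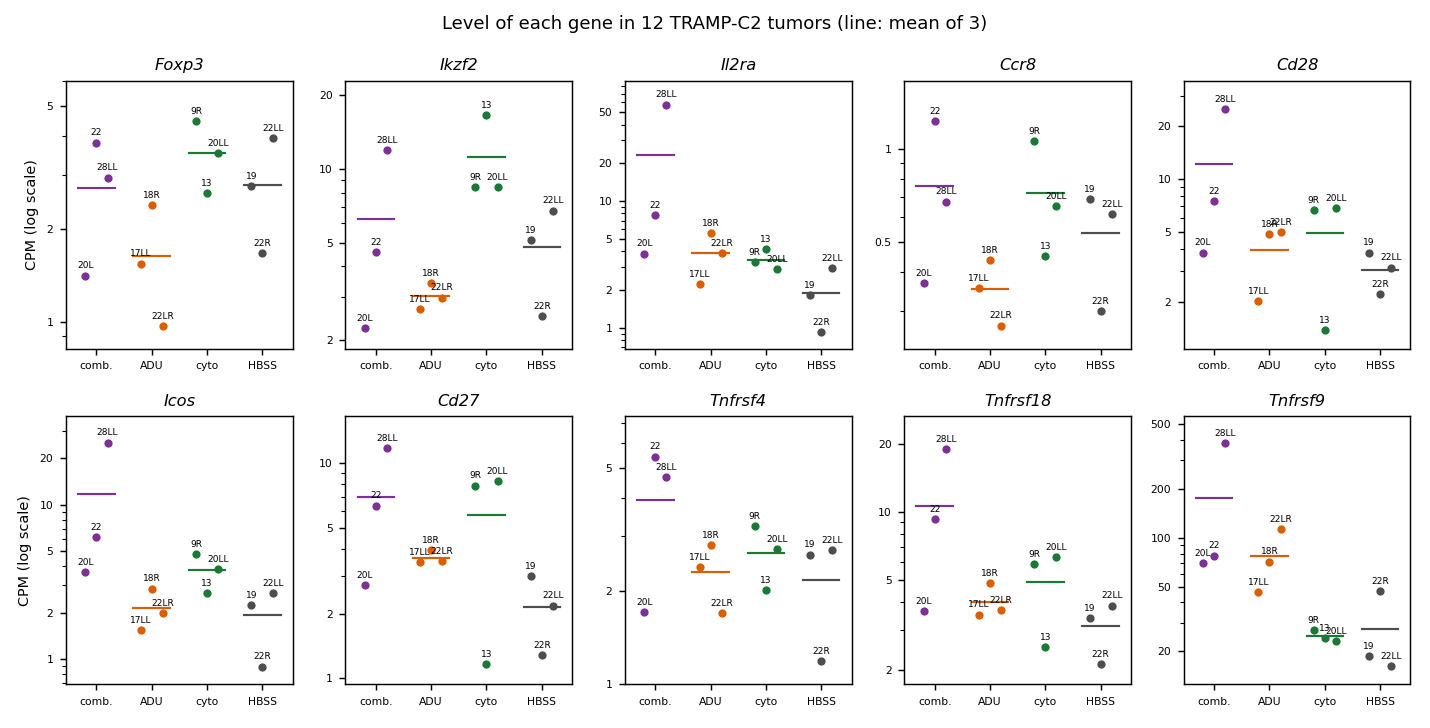
CPM (log scale) of each of the 10 genes in each tumor, labelled by tumor name, with the mean of 3 tumors as a line and groups from left to right combination (comb.), ADU-S100 (ADU), cyto-IL-15 (cyto) and HBSS. Tumor 28LL is the highest dot for 6 genes, and Tnfrsf9 sits at 46.5 CPM or more in all 6 tumors given ADU-S100.

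Cd28, the first costimulatory receptor that naive T cells use, was measured at 3.81, 7.49 and 25.1 CPM in the combination, 2.01, 4.87 and 4.98 in ADU-S100, 6.69, 1.37 and 6.82 in cyto-IL-15 and 3.81, 2.2 and 3.13 CPM in HBSS tumors. Combination tumor 20L fell within the HBSS range, and tumor 13 had the lowest value. The combination over HBSS gave a log2 fold change of 2.03 (SE 0.71, edgeR adjusted p = 0.233), which was 0.91 without 28LL. Icos, the inducible receptor of the same family, stood at 3.68, 6.14 and 25.1 CPM in the combination, 1.55, 2.87 and 1.99 in ADU-S100, 4.77, 2.68 and 3.82 in cyto-IL-15 and 2.24, 0.897 and 2.66 CPM in HBSS tumors. Both groups given cyto-IL-15 lay wholly above HBSS in Icos, although tumors 13 and 22LL were nearly level. Its log2 fold change over HBSS was 2.62 (SE 0.84, edgeR adjusted p = 0.215) for the combination, 1.36 without 28LL, and 0.97 (SE 0.48, adjusted p = 0.898) for cyto-IL-15.

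Cd27, a receptor of naive and memory T cells and of natural killer cells that binds Cd70, was measured at 2.72, 6.37 and 11.8 CPM in the combination, 3.46, 3.96 and 3.50 in ADU-S100, 7.89, 1.16 and 8.29 in cyto-IL-15 and 2.98, 1.28 and 2.18 CPM in HBSS tumors. The 3 ADU-S100 tumors were close together and all above HBSS, while the cyto-IL-15 group held both the second-highest tumor and the lowest. The log2 fold change over HBSS was 1.73 (SE 0.60, edgeR adjusted p = 0.231) for the combination (1.1 without 28LL), 0.78 (SE 0.31, adjusted p = 0.167) for ADU-S100 and 1.44 (SE 0.74, adjusted p = 0.898) for cyto-IL-15, the last of which was 1.93 (adjusted p = 0.0553) without tumor 13.

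Tnfrsf4 (OX40) and Tnfrsf18 (GITR) are receptors that effector T cells gain on activation and that mouse regulatory T cells carry at rest. For Tnfrsf4 the combination tumors had 1.71, 5.44 and 4.66 CPM, the ADU-S100 tumors 2.38, 2.82 and 1.69, the cyto-IL-15 tumors 3.23, 2.02 and 2.73 and the HBSS tumors 2.62, 1.18 and 2.71 CPM. The groups overlapped throughout, and its largest log2 fold change over HBSS was 0.88 (SE 0.54, edgeR adjusted p = 0.407) in the combination. For Tnfrsf18 the values were 3.65, 9.33 and 19.0 CPM in the combination, 3.52, 4.83 and 3.68 in ADU-S100, 5.89, 2.53 and 6.29 in cyto-IL-15 and 3.39, 2.12 and 3.85 CPM in HBSS tumors. Tumor 20L lay inside the HBSS range and the other combination tumors above it, with a log2 fold change of 1.80 (SE 0.61, edgeR adjusted p = 0.226) that was 1.07 without 28LL. Although Tnfrsf4 and Tnfrsf18 lie 9.6 kb apart, tumor 28LL was the highest for Tnfrsf18 and the second-highest, after 22, for Tnfrsf4.

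Tnfrsf9 (4-1BB or CD137) is induced on T cells and natural killer cells by activation and is also found on dendritic, mast and endothelial cells. It was measured at 69.5, 77.6 and 383 CPM in the combination, 46.5, 71.3 and 113 in ADU-S100, 26.9, 24.1 and 23.0 in cyto-IL-15 and 18.7, 46.9 and 16.1 CPM in HBSS tumors. The tumors given ADU-S100, alone or combined, were the 6 highest but for HBSS tumor 22R, which exceeded ADU-S100 tumor 17LL by less than 1 CPM. The endothelial genes Pecam1, Cdh5, Kdr and Tek summed to 718 CPM in 22R and 646 in 28LL, against 137 to 452 CPM in the other tumors. Their part in the level of Tnfrsf9 was not tested. Taking both ADU-S100 groups against both groups without it (6 tumors against 6, all 12 in one fit), the log2 fold change was 2.17 (SE 0.46, edgeR adjusted p = 0.0566), which missed the threshold. Over 16 alternatives this adjusted p ran from 0.000129 with DESeq2 to 0.161. In edgeR's fit Tnfrsf9 passed without 28LL, at a log2 fold change of 1.54 (adjusted p = 0.0448), without combination tumor 20L, at 2.33 (adjusted p = 0.0248), and without both 13 and 28LL, at 1.53 (adjusted p = 0.0496). Pair by pair, the log2 fold change was 2.73 (SE 0.82, edgeR adjusted p = 0.207) for the combination over HBSS, 1.46 without 28LL, and 1.51 (SE 0.53, adjusted p = 0.163) for ADU-S100 over HBSS. Against cyto-IL-15 both groups given ADU-S100 lay wholly above, with log2 fold changes of 2.86 (SE 0.73, edgeR adjusted p = 0.785) for the combination and 1.60 (SE 0.31, adjusted p = 0.272) for ADU-S100. Without tumors 13 and 28LL these values were 1.57 and 1.62. Cyto-IL-15 over HBSS gave -0.12 (SE 0.41, edgeR adjusted p = 0.964), a sign that turned when tumor 22R was left out.

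**Figure D3:**
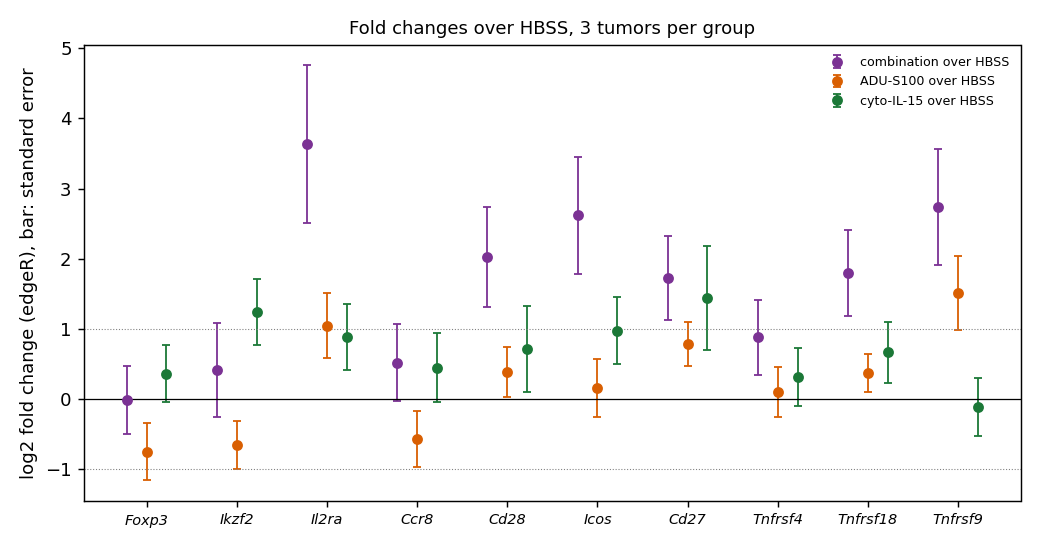
Log2 fold change over HBSS (edgeR, 3 tumors per group) of each gene for the combination, ADU-S100 and cyto-IL-15, with the standard error as a bar and dotted lines at -1 and 1. The combination has the highest value for 8 of the 10 genes, with Il2ra at 3.63, and none of the values was called.

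With edgeR none of the 10 genes was called in the combination over HBSS, where 0.0% of all 18565 genes tested were called. At an unadjusted p under 0.05 there were 6 genes (Il2ra, Icos, Tnfrsf9, Cd28, Cd27 and Tnfrsf18), against 18.2% of all genes. DESeq2 called these 6 as higher, against 5.22% of all genes it tested, with adjusted p from 0.00225 for Il2ra to 0.0483 for Cd27. The groups did not overlap for 3 of the 10 genes (Icos, Il2ra and Tnfrsf9), a share close to the 30.3% of all genes. The median log2 fold change of the 10 genes was 1.76 (0.99 without 28LL), and 0.01 over all genes.

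In ADU-S100 over HBSS, edgeR called none of the 10 genes, against 3.53% of all genes, and DESeq2 none, against 5.51%. At an unadjusted p under 0.05 there were 2 (Tnfrsf9 and Cd27), against 23.9%, and 1 (Cd27) did not overlap HBSS, against 31.2%. Both shares lie below those over all genes, and the median log2 fold change was 0.26, against 0.03 over all genes. For cyto-IL-15 over HBSS, edgeR called none of the 10 genes (0.0% of all genes) and DESeq2 none (0.517%), with 1 at an unadjusted p under 0.05 (Ikzf2, against 3.8%). Icos and Ikzf2, 2 of the 10, did not overlap HBSS, against 10.5% of all genes, and the median log2 fold change was 0.69, against 0.04 over all genes. These 3 comparisons share the HBSS tumors.

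Between treated groups edgeR called none of the 10 genes either. In ADU-S100 over cyto-IL-15, 0.0855% of all genes were called. Ikzf2, Foxp3 and Tnfrsf9 had an unadjusted p under 0.05 (7.85% of all genes), DESeq2 called Ikzf2 lower and Tnfrsf9 higher (1.27%), and 4 genes did not overlap (16.7%), Ikzf2, Foxp3 and Ccr8 lower and Tnfrsf9 higher. The median log2 fold change of the 10 genes was -0.52 (-0.88 without tumor 13), against -0.04 over all genes. In the combination over cyto-IL-15 no gene was called (0.0%), Il2ra and Tnfrsf9 had an unadjusted p under 0.05 (4.97%), DESeq2 called Tnfrsf9 higher (0.643%), and Tnfrsf9 alone did not overlap (12.8%). In the combination over ADU-S100 no gene was called (0.0%), and all 10 had a positive log2 fold change, with a median of 1.15 (0.60 without 28LL, when 9 were positive) against 0.02 over all genes. Icos, Il2ra and Tnfrsf18 had an unadjusted p under 0.05 there (4.29%), DESeq2 called none of the 10 (0.0361%), and Icos alone did not overlap (10.8%). Without tumors 13 and 28LL the log2 fold change of Icos in this comparison was 1.21, against 2.46 with all tumors, and that of Tnfrsf9 was -0.05, against 1.22.

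In the fit of all 12 tumors, edgeR called none of the 10 genes for ADU-S100 (6 tumors with it against 6 without), against 0.82% of all genes. Il2ra and Tnfrsf9 had an unadjusted p under 0.05 (20.6% of all genes), and DESeq2 called both as higher (4.72%). For Il2ra the log2 fold change was 1.88 (SE 0.60, edgeR adjusted p = 0.122, from 0.0153 to 0.263 over 16 alternatives). It was 0.97 (edgeR adjusted p = 0.137) without tumors 13 and 28LL, and edgeR called it without combination tumor 20L. For cyto-IL-15, 6 tumors against 6, edgeR called none of the 10 genes (0.0%), and all 10 log2 fold changes were positive. Their median was 1.09, against 0.05 over all genes. Without 28LL the median was 0.69 and 9 were positive. Tnfrsf9 turned negative there, and also without both 13 and 28LL. An unadjusted p under 0.05 was found for 6 genes (Icos, Il2ra, Ikzf2, Tnfrsf18, Cd27 and Cd28, against 7.55%). DESeq2 called Icos alone (0.469%), where edgeR gave a log2 fold change of 1.71 (SE 0.47, adjusted p = 0.652) and 5 of the 6 tumors given cyto-IL-15 lay above all 6 without it. The interaction, which asks whether the effect of cyto-IL-15 differed with ADU-S100 present, called none of the 10 genes with edgeR (0.0%) or DESeq2 (0.0%), and none had an unadjusted p under 0.05 (2.29%).

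Markers of T cells and natural killer cells were summed in each tumor beside these values. The 15 T cell genes summed to 123, 323 and 591 CPM in the combination tumors 20L, 22 and 28LL, 110.0 to 173 in ADU-S100, 40.4 to 275 in cyto-IL-15 and 59.2 to 104.5 CPM in HBSS tumors. All 15 had a positive log2 fold change in the combination over HBSS, with a median of 1.85. EdgeR called none of them, 14 had an unadjusted p under 0.05 and DESeq2 called 11. The 9 natural killer cell genes summed to 190 to 3349 CPM in the combination, 107 to 195 in ADU-S100, 45.8 to 147 in cyto-IL-15 and 29.2 to 32.1 CPM in HBSS tumors, and none of these markers was at 0. In ADU-S100 over HBSS edgeR called 4 of the 15 T cell genes and 8 of the 9 natural killer cell genes, all higher, against 3.53% of all genes. Tumor 28LL, the highest for 6 of the 10 genes, had the highest sum in both lists. Its T cell sum was led by Lck (102.9 CPM), Trbc1 (94.42), Zap70 (87.73) and Trbc2 (69.04 CPM). Single T cell genes were divided. Cd3e, Cd5, Cd6, Cd8a, Cd8b1 and Trac were higher in cyto-IL-15 tumor 20LL or combination tumor 22. Cd3e, for example, stood at 14.01 CPM in 28LL and 17.86 CPM in 20LL. The other genes of that list were highest in 28LL. The part of T cells and natural killer cells in the levels of the 10 genes was not tested. Mast cell genes summed to 38.9 CPM in 28LL and 34.1 CPM in cyto-IL-15 tumor 13, against at most 6.65 CPM in any other tumor. Neutrophil genes summed to 250.5 CPM in 28LL, against at most 47.3 CPM in any other tumor.

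Relative to Cd3e in the same tumor, the genes were ordered differently among the tumors. Tumor 28LL was highest for 6 of the 10 genes and tumor 13, where Cd3e was lowest, for the other 4. Cd28 stood at 62.7, 54.0 and 179 reads per 100 Cd3e reads in the combination tumors 20L, 22 and 28LL, 33.4, 52.8 and 69.5 in the ADU-S100 tumors, 43.7, 72.0 and 38.2 in the cyto-IL-15 tumors and 53.8, 53.8 and 54.9 in the HBSS tumors. Apart from 28LL, the treated tumors thus lay on both sides of HBSS in Cd28. Icos had 60.5, 44.2 and 179 reads per 100 Cd3e reads in the combination tumors, 25.7, 31.1 and 27.8 in the ADU-S100 tumors, 31.2, 141 and 21.4 in the cyto-IL-15 tumors and 31.6, 21.9 and 46.8 in the HBSS tumors. Per 100 Cd3e reads, Icos in combination tumor 22 thus lay within the HBSS range. Tnfrsf9 exceeded Cd3e in read number in every tumor, with 1144, 559 and 2731 reads per 100 Cd3e reads in the combination, 772, 773 and 1574 in ADU-S100, 175.5, 1269 and 129 in cyto-IL-15 and 263, 1147 and 284 in HBSS tumors.

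**Figure D4:**
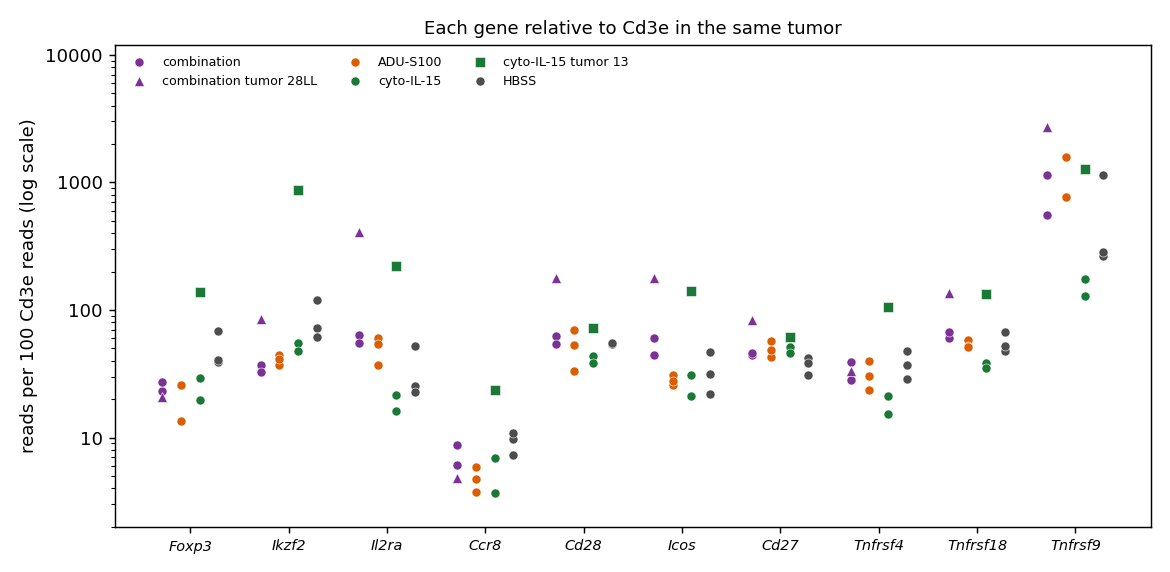
Reads of each gene per 100 Cd3e reads in the same tumor (log scale), 3 tumors per group from left to right combination, ADU-S100, cyto-IL-15 and HBSS, with tumor 28LL as a triangle and tumor 13 as a square. The triangle is highest for 6 genes and the square for 4, and Tnfrsf9 lies above 100 in every tumor.

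Foxp3 was set against Cd4 and Cd8a, the coreceptors of helper and cytotoxic T cells, because regulatory T cells are mostly Cd4-positive. Cd4 is also expressed by some myeloid cells and Cd8a by some dendritic cells, so these are ratios of reads and not of cells. Foxp3 reads per 100 Cd4 reads were 24.2, 41.7 and 14.8 in the combination, 62.8, 39.7 and 36.7 in ADU-S100, 36.0, 43.0 and 34.6 in cyto-IL-15 and 39.2, 30.7 and 53.7 in HBSS tumors. The lowest 2 were combination tumors, 28LL and 20L, and the third combination tumor lay among the others. The difference in mean log2 ratio was -0.22 for ADU-S100 (exact stratified permutation test, two-sided, p = 0.47, adjusted over 4 tests 0.627, 6 tumors against 6) and -0.48 for cyto-IL-15 (p = 0.14, adjusted 0.28, the same exact test).

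Foxp3 reads per 100 Cd8a reads were 12.3, 11.7 and 8.89 in the combination, 12.6, 11.3 and 6.64 in ADU-S100, 19.4, 86.6 and 10.2 in cyto-IL-15 and 20.9, 23.1 and 62.5 in HBSS tumors. Both groups given ADU-S100 lay wholly below HBSS, and cyto-IL-15 tumor 20LL lay among them. Over 6 tumors with ADU-S100 and 6 without, the difference in mean log2 ratio was -1.45, a ratio 0.365 times that without it. All 6 tumors with ADU-S100 lay below the median of the 6 without. The exact permutation test, with labels exchanged within each level of cyto-IL-15 (400 arrangements, smallest possible p 0.005), gave p = 0.015 and 0.06 after adjustment over the 4 tests, which missed the threshold. Without tumors 13 and 28LL the difference was -0.95 (exact p = 0.05, adjusted 0.2), and over the alternatives the adjusted p ran from 0.02, without cyto-IL-15 tumor 20LL, to 0.2. Leaving out 20LL removed the only overlap between tumors with and without ADU-S100. For cyto-IL-15 the difference was -0.06 (exact permutation p = 0.885, adjusted 0.885). With 3 tumors against 3 the exact test cannot go below 0.1, the value it gave for the combination (-1.52) and for ADU-S100 (-1.66) over HBSS.

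Cd8a, the denominator of this ratio, stood at 11.5, 32.5 and 33.0 CPM in the combination, 12.3, 21.2 and 14.7 in ADU-S100, 23.0, 3.02 and 34.5 in cyto-IL-15 and 13.2, 7.23 and 6.28 CPM in HBSS tumors. Its log2 fold change over HBSS was 1.55 (edgeR adjusted p = 0.213) for the combination and 0.87 (adjusted p = 0.142) for ADU-S100, beside -0.01 and -0.75 for Foxp3. Cd4 had 5.83, 9.13 and 19.8 CPM in the combination, 2.46, 6.02 and 2.65 in ADU-S100, 12.4, 6.08 and 10.2 in cyto-IL-15 and 7.02, 5.45 and 7.32 CPM in HBSS tumors, and its log2 fold change in ADU-S100 over HBSS was -0.82 (edgeR adjusted p = 0.191).

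**Figure D5:**
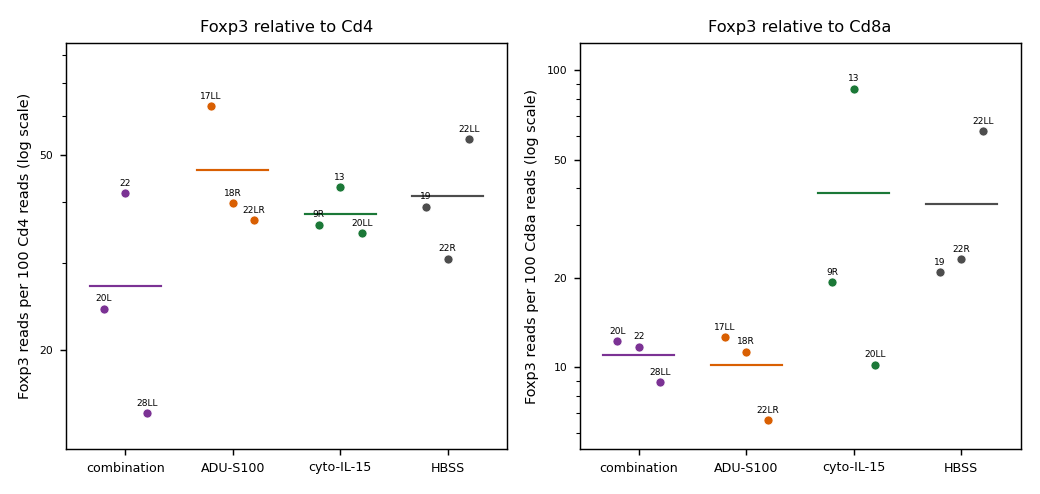
Foxp3 reads per 100 Cd4 reads (left) and per 100 Cd8a reads (right) in each tumor, on log scales, with the mean of 3 tumors as a line. Relative to Cd8a, the 6 tumors given ADU-S100 lie between 6.64 and 12.6, and 5 of the 6 others lie at 19.4 or above.

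The genes whose level was nearest to that of Foxp3 over the 12 tumors were found as those with the smallest root mean square difference of centred log2(CPM + 0.5), among 15503 genes of at least 0.5 CPM on average. They were Bcl2l14 (0.27), Ccr8 (0.28), Batf3 (0.32), Ahrr (0.32) and Spns3 (0.33). Genes near 0.5 CPM vary little on this scale, and Bcl2l14 and Ccr8 averaged 0.59 CPM. Of the other 8 genes studied here, Tnfrsf4 was the nearest to Foxp3 (0.40, rank 28), followed by Ikzf2 (0.62, rank 7254), and Il2ra (1.26, rank 14847) and Tnfrsf9 (1.51, rank 15197) were the farthest. Cd4 had a difference of 0.48 (rank 414) and Cd8a of 0.98 (rank 13880). These are descriptions over 12 libraries that share their groups.

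Ligands of these receptors did not pass edgeR's test. Of 10 ligand genes (Cd80, Cd86, Icosl, Cd70, Tnfsf4, Tnfsf9, Tnfsf18, Ccl1, Ccl8 and Il2), 8 had enough reads to be tested in each comparison with HBSS, and edgeR called none of them in any comparison. At an unadjusted p under 0.05 there were 2 in the combination (18.2% of all genes), 5 in ADU-S100 (23.9%) and 1 in cyto-IL-15 (3.8%) over HBSS. DESeq2 called Ccl1 as higher in the combination over HBSS (5.22%) and for ADU-S100 over 6 against 6 tumors (4.72%). Ccl1, a ligand of Ccr8, was measured at 1.19, 2.87 and 2.63 CPM in the combination, 0.807, 0.7 and 0.504 in ADU-S100, 0.865, 0.177 and 0.538 in cyto-IL-15 and 0.36, 0.258 and 0.352 CPM in HBSS tumors. Both groups given ADU-S100 lay above HBSS, with log2 fold changes of 2.80 (edgeR adjusted p = 0.185) for the combination and 1.07 (adjusted p = 0.101) for ADU-S100. Tnfsf9, the ligand of Tnfrsf9, stood at 10.7, 11.5 and 9.82 CPM in the combination, 12.1, 10.5 and 12.3 in ADU-S100, 4.6, 7.0 and 7.73 in cyto-IL-15 and 9.10, 7.78 and 8.01 CPM in HBSS tumors. All 6 tumors given ADU-S100 lay above the other 6, and the log2 fold change was 0.61 (edgeR adjusted p = 0.0844, 6 against 6). Tnfsf4, the ligand of Tnfrsf4, was at 0.868 to 2.00 CPM in the combination, 0.719 to 1.21 in ADU-S100, 0.923 to 1.08 in cyto-IL-15 and 0.299 to 0.622 CPM in HBSS tumors, so that every treated tumor lay above every HBSS tumor, with log2 fold changes of 1.48, 1.1 and 1.13 (edgeR adjusted p = 0.222, 0.109 and 0.898).

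Of 19 further genes associated with regulatory T cells, 18 were tested. EdgeR called 2 in ADU-S100 over HBSS, against 3.53% of all genes, and none in the other comparisons. In the combination over HBSS 7 had an unadjusted p under 0.05 (18.2% of all genes) and DESeq2 called 2, Il2rg and Il2rb (5.22%). In ADU-S100 over HBSS 10 had one (23.9%) and DESeq2 called 3, Izumo1r, Itgae and Il2rb (5.51%). In cyto-IL-15 over HBSS 3 had an unadjusted p under 0.05 (3.8%) and DESeq2 called none (0.517%). Il2rb, the β chain shared by the receptors for interleukin-2 and interleukin-15, stood at 38.7, 68.6 and 66.7 CPM in ADU-S100 tumors, against 26.6, 16.3 and 20.1 CPM in HBSS tumors. It rose by a log2 fold change of 1.48 (SE 0.25, edgeR adjusted p = 0.0175). The cyto-IL-15 tumors had 70.5, 24.7 and 84.1 CPM of Il2rb and the combination tumors 62.8, 153 and 683 CPM. The part of T cells and natural killer cells in the level of Il2rb was not tested. Itgae (CD103), an integrin chain of tissue-resident T cells and some dendritic cells, stood at 1.29, 1.32 and 0.918 CPM in ADU-S100 tumors, against 5.42, 2.47 and 4.73 CPM in HBSS tumors. It had a log2 fold change of -1.82 (SE 0.34, edgeR adjusted p = 0.0194). In that comparison 10 of the 18 values were positive and 8 negative, with a median of 0.09 on the log2 scale, so that the genes did not share a direction. The 8 genes of the dendritic cell list all had negative log2 fold changes there (median -0.34), 2 of them (Flt3 and Cd209a) called. All 6 B and plasma cell genes were negative too (median -1.30), 1 of them (Cd79b) called, against 3.53% of all genes. The part of any of these cells in the level of Itgae was not tested.

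Among 15 signalling genes downstream of the receptors, edgeR called 1, Prkcq, in ADU-S100 over HBSS (3.53% of all genes) and none in the other comparisons. At an unadjusted p under 0.05 there were 3 in ADU-S100 over HBSS (23.9% of all genes). Prkcq was also the 1 gene with an unadjusted p under 0.05 in the combination over HBSS (18.2% of all genes), where DESeq2 called it (5.22%). Prkcq encodes protein kinase C θ, which links Cd28 and the T cell receptor to NF-κB, and is also expressed in skeletal muscle. It stood at 10.5, 11.7 and 9.91 CPM in ADU-S100 tumors, against 4.04, 2.72 and 4.73 CPM in HBSS tumors, and rose by a log2 fold change of 1.5 (SE 0.23, edgeR adjusted p = 0.00954). The cyto-IL-15 tumors had 14.4, 1.37 and 11.6 CPM of Prkcq and the combination tumors 9.55, 17.2 and 49.9 CPM. The skeletal muscle list of 5 genes, led by Acta1, summed to 119 to 1231 CPM in the ADU-S100 tumors, against 1.79 to 2.92 CPM in the HBSS tumors, and its part in the level of Prkcq was not tested. Of the other 14 signalling genes, including the Traf adaptors, Relb, Nfkb2 and both Stat5 genes, none was called in that comparison, where the 15 genes had a median of -0.02 on the log2 scale.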

How the data were processed

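RNA from 12 flash-frozen tumors was sequenced by the study. The submitters' processing notes name bcl2fastq 2.20, Trimmomatic 0.36, STAR 2.5.2b, featureCounts from Subread 1.5.2 and DESeq2, with builds GRCm38 and mm10. The values used are the raw counts per Ensembl gene as deposited by the authors, 48772204 to 103700199 per tumor, one library each. The strand setting of the counting is not given in the sources used here.

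Groups came from the labels. Genes with too few reads were removed with edgeR's filterByExpr (minimum count 10, total 15), libraries were scaled by TMM, and each pair of groups was tested on its own 6 tumors with edgeR 4.0.16 (quasi-likelihood F-test, robust, R 4.3.3), with p-values adjusted by Benjamini-Hochberg over all genes. All 12 tumors entered one fit for the 6 against 6 comparisons and the interaction. Foxp3 ratios were log2 of counts with 0.5 added, tested by exact permutation. The edgeR and DESeq2 fits were tested on simulated counts for ADU-S100 over HBSS only, with a fixed spread and no outlying tumor. The other comparisons, whose spread between tumors was larger, were not simulated. Alternatives were DESeq2 1.42.0, its size factors, no filter, a shared fit, no fold threshold, 10 tumors without 13 and 28LL, another added count, Cd3e as denominator, and leaving out each tumor. Besides the 10 genes, Cd4 and Cd8a, the genes named were those of the 3 pathway lists that edgeR called or, for a list with none, the 2 with the smallest p in each comparison over HBSS, and the 5 nearest to Foxp3. The 10 genes and all lists were chosen with earlier results of these data known.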

Additional observations from a re-analysis of the deposited data

How the results depend on the processing

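The count of the 10 genes called was 0 with edgeR in all 9 comparisons. With DESeq2 it was 6 in the combination over HBSS, 2 in ADU-S100 over cyto-IL-15 (Ikzf2 and Tnfrsf9), 1 in the combination over cyto-IL-15 (Tnfrsf9), 2 for ADU-S100 over 6 against 6 tumors (Il2ra and Tnfrsf9) and 1 for cyto-IL-15 (Icos). Without the filter on low counts edgeR called 1 in ADU-S100 over cyto-IL-15 (Tnfrsf9), and in the 10 tumors without 13 and 28LL it called 1 for ADU-S100 (Tnfrsf9). Leaving out one tumor at a time gave 0 to 1 in ADU-S100 over cyto-IL-15 (Ikzf2, without tumor 13) and 0 to 2 for ADU-S100 (Il2ra and Tnfrsf9 without 20L, Tnfrsf9 without 28LL). The log2 difference of the Foxp3 to Cd8a ratio for ADU-S100 lay between -1.79 (without cyto-IL-15 tumor 20LL, exact permutation p = 0.005, adjusted 0.02) and -1.02 (without tumor 13) when one tumor was left out. Without 20LL the tumors with and without ADU-S100 no longer overlapped, so this exact p was the smallest the test could give. Over all genes, edgeR and DESeq2 called 0 and 1149 in the combination over HBSS, 667 and 1123 in ADU-S100 over HBSS, 0 and 110 in cyto-IL-15 over HBSS, 16 and 262 in ADU-S100 over cyto-IL-15, 0 and 114 in the combination over cyto-IL-15, 0 and 7 in the combination over ADU-S100, 165 and 1069 for ADU-S100 and 0 and 95 for cyto-IL-15, and the cause was not tested. No paired analysis was possible because the labels give no replicate numbers and do not say what the leading numbers stand for that some tumor names share across groups (22, 22R, 22LL and 22LR, or 20L and 20LL). With 3 tumors per group, edgeR's biological coefficient of variation was 0.242 in ADU-S100 over HBSS and 0.387 in the combination over HBSS.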
